A study of Mus musculus with 6 samples.

Results

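Homologous recombination repairs broken DNA by copying an intact sister strand, the Fanconi anaemia pathway unhooks DNA interstrand crosslinks, and the replication checkpoint holds damaged or stalled replication forks. The genes described here are 43 that encode proteins of these pathways, taken by gene symbol from a list, and all 43 were found among the 21778 genes of the deposited count table. The BRCA proteins act early in recombination, the kinases ATR and CHK1 signal from single-stranded DNA, and ATM and CHK2 signal from breaks. Many of these genes are transcribed mainly in cells that replicate DNA, and myoblasts leave the cell cycle as they differentiate into muscle.

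Poly(A) RNA was sequenced from primary myoblasts, the muscle precursor cells, grown from alpha 7-integrin and CD34 positive cells sorted from hindlimb muscle, and collected at day 1, after 24 hours in differentiation medium with 2% horse serum. One group was Hdac11-/- (KO): C57BL/6 mice carrying loxP sites around exon 3 of Hdac11, a histone deacetylase gene, were crossed with mice expressing CRE under the SOX2 promoter, and the deletion leaves a stop codon in exon 4. The other group came from wild-type (WT) littermates. The deletion is a total knockout, so it was present in the animals before the cells were sorted, and nothing in the labels says which cultures shared a litter. Each group held 3 libraries, called biological replicates in the series' design text, with no label that ties them to single animals.

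Totals ran from 16742457 to 22835394 counts per library, of which 9172 to 21768 fell on the 43 genes. Levels are given in CPM, counts put on a common library size that was scaled by TMM, a trimmed mean of log ratios between libraries. The targeted gene, Hdac11, had levels of 33.5, 76.4 and 30.2 CPM in KO replicates 1 to 3, beside 63.0, 79.5 and 73.8 CPM in WT replicates 1 to 3. Its log2 fold change was -0.63 (SE 0.35, edgeR adjusted p 0.380). The library labelled KO replicate 2 thus lay within the WT range and went against its label, and counts that lead the results are given with and without it. Counts summed over a whole gene cannot tell a deleted exon from an intact one. Myoblast markers summed to 5047 to 6436 CPM in KO and 7862 to 8265 in WT, with 7 of 7 in the table, while fibroblast markers summed to 0.939 to 1.19 CPM in KO and 1.01 to 2.20 in WT and endothelial markers to 1.48 to 4.01 and 1.59 to 2.86. Haematopoietic markers summed to 5.31 to 6.98 CPM in KO and 5.30 to 16.0 in WT, and pericyte and smooth muscle markers to 30.9 to 77.9 and 91.1 to 292. Single markers differed within a list. Log2 fold changes ran from -2.35 to -0.003 over 3 tested pericyte and smooth muscle markers, with a median of -0.23. Over the 7 myoblast markers they ran from -0.88 to 0.66, with a median of -0.45. Dcn, Twist2, Kdr, Csf1r and Lyz2 had no count in at least 1 library, and the part of other cell types in the results was not tested. Each group held 1 library with a male and 2 with a female pattern of Xist and Y-linked counts.

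The promoters of 5 of the genes are shown because the genes cover both kinds of behaviour described next: Fanci, Topbp1, Clspn and Fanca had higher means in KO, and Atm did not. Each is the RefSeq sequence of GRCm38.p6 from 250 bases before to 50 bases after the annotated start, 5′ to 3′ on the gene's strand. Capitals mark words of the E2F site, bound by factors that drive genes of S phase. The words searched were TTCCCGC or TTCGCGC or TTGGCGC or TTGCCGC on both strands.
Fanci (chr7:79392088-79392387, plus strand): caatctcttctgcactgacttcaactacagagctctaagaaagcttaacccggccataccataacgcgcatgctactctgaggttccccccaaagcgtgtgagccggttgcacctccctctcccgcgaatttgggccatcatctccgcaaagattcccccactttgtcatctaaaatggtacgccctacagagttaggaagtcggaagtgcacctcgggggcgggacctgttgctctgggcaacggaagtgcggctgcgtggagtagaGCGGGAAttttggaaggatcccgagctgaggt
Topbp1 (chr9:103305077-103305376, plus strand): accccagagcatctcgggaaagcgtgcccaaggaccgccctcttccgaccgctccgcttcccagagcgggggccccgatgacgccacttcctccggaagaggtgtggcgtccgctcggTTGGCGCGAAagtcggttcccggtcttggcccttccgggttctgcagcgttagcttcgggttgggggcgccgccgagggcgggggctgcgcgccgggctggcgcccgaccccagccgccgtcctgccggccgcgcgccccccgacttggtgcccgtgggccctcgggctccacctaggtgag
Clspn (chr4:126556730-126557029, plus strand): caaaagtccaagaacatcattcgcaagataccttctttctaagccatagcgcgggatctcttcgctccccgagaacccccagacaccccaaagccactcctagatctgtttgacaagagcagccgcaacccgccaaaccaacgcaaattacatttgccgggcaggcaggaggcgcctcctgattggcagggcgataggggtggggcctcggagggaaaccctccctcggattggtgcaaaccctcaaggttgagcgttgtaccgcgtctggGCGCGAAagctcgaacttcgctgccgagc
Atm (chr9:53536622-53536921, minus strand): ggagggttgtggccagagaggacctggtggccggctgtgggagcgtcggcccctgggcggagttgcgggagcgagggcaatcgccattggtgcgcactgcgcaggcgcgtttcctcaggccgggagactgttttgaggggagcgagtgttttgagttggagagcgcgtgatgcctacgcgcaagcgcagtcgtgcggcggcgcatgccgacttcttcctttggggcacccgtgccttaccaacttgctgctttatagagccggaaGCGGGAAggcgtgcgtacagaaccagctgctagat
Fanca (chr8:123318527-123318826, minus strand): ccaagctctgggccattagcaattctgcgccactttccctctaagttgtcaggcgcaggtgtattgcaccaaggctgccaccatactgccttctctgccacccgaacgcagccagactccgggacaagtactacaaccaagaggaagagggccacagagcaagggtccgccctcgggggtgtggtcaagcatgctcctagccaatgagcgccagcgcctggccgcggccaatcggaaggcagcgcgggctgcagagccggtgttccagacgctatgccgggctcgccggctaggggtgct

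The word of Fanci began 19 bases and that of Atm 16 bases after the start, and that of Clspn 22 bases after it. Topbp1 held a pair of overlapping words, at 132 and 129 bases before the start, and Fanca held no match. These starts are those of the promoter annotation and can differ from the end of a gene's RefSeq span. The span of Topbp1 begins at 103305167, inside its window, and its words lie after that position. RefSeq promoters were matched for 33 of the genes, with 37 sequences, and 18 of the 33 (54.5%) held at least 1 E2F word. Among 17492 protein-coding genes with a promoter in the same table, 13.7% held one. The CCAAT box, searched as CCAAT on both strands, was in 21 of the 33 (63.6%) against 42.3% of protein-coding genes. The cell cycle homology region, searched as TTTGAA on both strands, was in 3 of the 33 (9.09%) against 18.5%. Some of the matched windows, among them those of Timeless, Slx4, Fancm and Fancc, lie wholly inside the RefSeq span of their gene. No promoter was matched for Rad51d, Xrcc2, Rad54b, Fancd2, Rmi2, Rbbp8, Exo1, Rad50, Nbn and Tipin. These matches describe letters and not binding.

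KO against WT was compared across all genes with edgeR's quasi-likelihood test, and every one of the 43 genes passed the low-count filter that left 14835 genes. Most of the 43 had a higher mean in KO: 39 had a positive log2 fold change and 4 a negative one. The median log2 fold change was 0.98, beside -0.01 over all genes tested. After Benjamini-Hochberg adjustment edgeR called 0 of the 43 higher and 0 lower at an adjusted p under 0.05, with 0% of all genes called higher and 0% called lower, and the smallest adjusted p among the 43 was 0.138. At an unadjusted p under 0.05, 26 of the 43 were higher in KO, beside 9.88% of all genes, and 0 were lower, beside 7.83%. The 3 KO values lay above the 3 WT values for 27 of the 43, beside 13.2% of all genes, and below them for 0, beside 10.2%.

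The count of calls depended on the test. DESeq2 called 21 of the 43 higher, beside 4.17% of all genes with an adjusted p, and 0 lower, beside 2.21%. The authors' deposited table also held 21 of the 43 called higher, beside 4.20%, and 0 called lower, beside 2.13%, and it shared all 21 with the DESeq2 fit. The authors also used DESeq2, on the same libraries, so the shared calls are not independent support. Over all genes DESeq2 called 608 higher with all 6 libraries. Leaving out KO replicate 1, 2 or 3 gave DESeq2 counts of 12, 21 and 3 of the 43, beside 504, 585 and 175 of all genes. Leaving out WT replicate 1, 2 or 3 gave 21, 8 and 17, beside 810, 326 and 575 of all genes. Fanca, Fancd2 and Fanci were called by DESeq2 in each of those 6 fits. Without the library labelled KO replicate 2, 27 of the 43 were higher at an unadjusted edgeR p under 0.05, beside 9.52% of all genes, and DESeq2 called 21, beside 4.02%. The 2 remaining KO values lay above the 3 WT values for 29 of the 43, beside 19.5% of all genes.

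**Figure D1:**
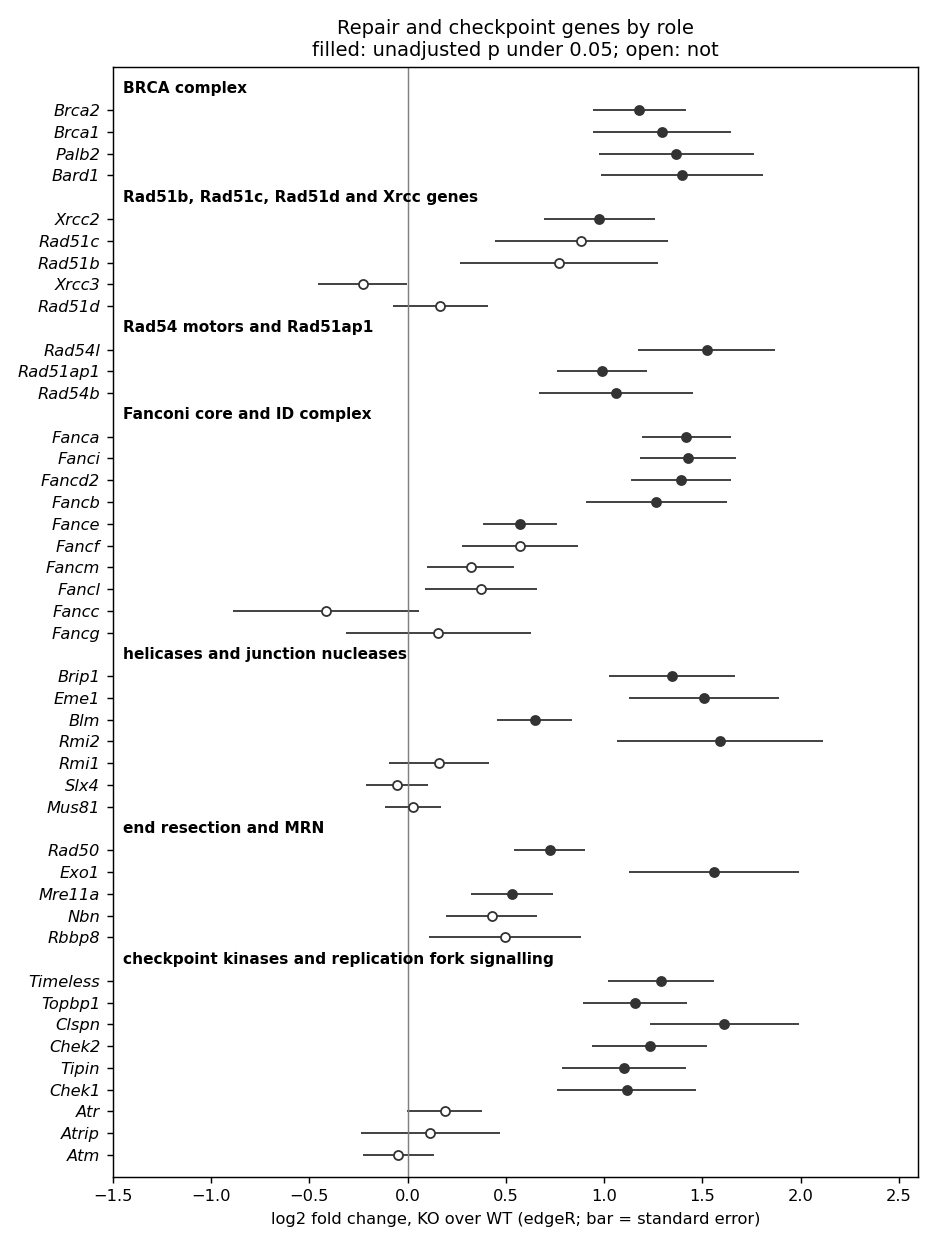
Log2 fold change of KO over WT (x axis, edgeR; bars are standard errors from 3 libraries a group) for the 43 genes, ordered within each role by p. Filled points, 26 in all, had an unadjusted p under 0.05, and all lie to the right of 0. Atm, Mus81 and Slx4 are among the open points that sit at 0 within their error.

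The 26 genes with an unadjusted p under 0.05 had log2 fold changes from 0.53 to 1.61, with a median of 1.28, and the other 17 from -0.41 to 0.88, with a median of 0.17. The split ran through every pathway except the BRCA genes and the group of Rad54l, Rad54b and Rad51ap1, where all members had an unadjusted p under 0.05. Of the 19 genes with that p and a matched promoter, 12 held an E2F word, and of the 14 others with a promoter, 6 did, Atm among them.

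BRCA1 and BARD1 form a ubiquitin ligase that starts recombination, and PALB2 bridges BRCA1 to BRCA2. Brca1 was at 33.8, 19.0 and 44.5 CPM in KO and at 15.2, 8.97 and 15.3 in WT, given here and below in the order of replicates 1 to 3. Bard1 was at 21.4, 14.1 and 23.3 CPM in KO and at 9.09, 3.38 and 9.79 in WT. Both partners were lowest in replicate 2 of each group, and the groups did not overlap. Palb2 was at 7.12, 4.34 and 8.81 CPM in KO and at 2.58, 1.75 and 3.49 in WT. Brca2 was at 19.8, 17.4 and 24.1 CPM in KO and at 9.86, 6.87 and 10.3 in WT, the tightest of the 4 by standard error. The log2 fold changes of Brca1, Bard1, Palb2 and Brca2 were 1.30 (SE 0.35), 1.40 (SE 0.41), 1.37 (SE 0.39) and 1.18 (SE 0.24). Their edgeR adjusted p ran from 0.138 to 0.193, and DESeq2 called all 4.

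Rad51b, Rad51c, Rad51d, Xrcc2 and Xrcc3 encode related proteins that work in complexes during recombination, and their values differed among themselves. Xrcc2 was at 9.81, 7.52 and 13.2 CPM in KO and at 5.77, 4.60 and 5.13 in WT, and its log2 fold change was 0.98 (SE 0.28; edgeR adjusted p 0.191). Rad51c was at 4.78, 7.34 and 7.23 CPM in KO and at 5.55, 1.80 and 3.07 in WT, so that KO replicate 1 lay below WT replicate 1. Rad51b was under 1 CPM in every library, at 0.996, 0.850 and 0.565 CPM in KO and 0.431, 0.233 and 0.741 in WT. Xrcc3, the partner of RAD51C in the complex without XRCC2, overlapped between the groups. It was at 25.5, 22.5 and 28.5 CPM in KO and at 21.9, 29.9 and 37.9 in WT, a log2 fold change of -0.23 (SE 0.23). Rad51d, which binds XRCC2 directly, was at 9.96, 11.7 and 15.4 CPM in KO and at 12.7, 9.49 and 10.7 in WT, a log2 fold change of 0.17 (SE 0.24). Xrcc2 was the 1 gene of these 5 with an unadjusted p under 0.05. Whether Xrcc2 differed from the other 4 was not tested.

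Rad54l, Rad54b and Rad51ap1, whose products act in strand exchange, were all higher by their means. Rad54l encodes the RAD54 motor that drives strand exchange. It was at 19.7, 11.2 and 29.0 CPM in KO and at 6.98, 6.17 and 7.67 in WT, a log2 fold change of 1.52 (SE 0.35). The KO libraries spread more than the WT libraries, with means of 20.0 ± 8.93 CPM and 6.94 ± 0.752 CPM (SD, n = 3). Rad51ap1, which stimulates strand pairing, was at 30.9, 22.8 and 37.3 CPM in KO and at 15.6, 12.8 and 17.4 in WT. Rad54b, a second motor of this family, was at 16.1, 13.2 and 16.0 CPM in KO and at 9.90, 3.26 and 8.52 in WT. For Rad54b the wide spread was in WT, where replicate 2 stood lowest, and DESeq2 did not call it with all 6 libraries (adjusted p 0.0978). It did without WT replicate 1, and over all settings and tools the adjusted p ran from 0.0258 to 0.582. DESeq2 called Rad54l and Rad51ap1.

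FANCD2 and FANCI form the pair that is ubiquitinated at crosslinks. Fancd2 was at 21.5, 24.8 and 27.4 CPM in KO and at 11.1, 6.40 and 10.6 in WT. Fanci was at 13.1, 11.7 and 15.5 CPM in KO and at 5.77, 4.08 and 5.13 in WT. Both showed a gap between the groups wider than the range within either one, with log2 fold changes of 1.39 (SE 0.25) and 1.43 (SE 0.24). Fanca, a subunit of the core ligase complex, was at 26.2, 20.8 and 34.2 CPM in KO and at 9.39, 9.90 and 11.1 in WT. Its log2 fold change was 1.42 (SE 0.23), with the smallest unadjusted p of the 43 genes, 0.000331, which ranked it 27 among all genes tested. The edgeR adjusted p was 0.138 for each of the 3. Fancb, an X-linked core subunit, was at 9.11, 6.40 and 15.1 CPM in KO and at 4.95, 4.08 and 3.65 in WT, a log2 fold change of 1.27 (SE 0.36).

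The remaining core subunits had smaller values. Fancg, another core subunit, was at 3.93, 3.40 and 3.90 CPM in KO and at 1.94, 2.21 and 5.93 in WT, where replicate 3 alone stood above all KO libraries. Fance and Fancf had log2 fold changes of 0.57 (SE 0.19) and 0.57 (SE 0.30), with no overlap of the groups, and Fancl, the ligase subunit, and Fancm, the anchor on DNA, had 0.37 and 0.32 with overlap. Fancc was the 1 gene with a negative value among the 10 with a Fanc symbol. It was at 13.0, 3.27 and 9.15 CPM in KO and at 8.65, 14.3 and 11.0 in WT, and its log2 fold change of -0.41 (SE 0.47) was -0.02 without the library labelled KO replicate 2. Of the 10 genes with a Fanc symbol, 5 were higher at an unadjusted edgeR p under 0.05, beside 9.88% of all genes. DESeq2 called 4 of them higher, beside 4.17% of all genes with an adjusted p.

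**Figure D2:**
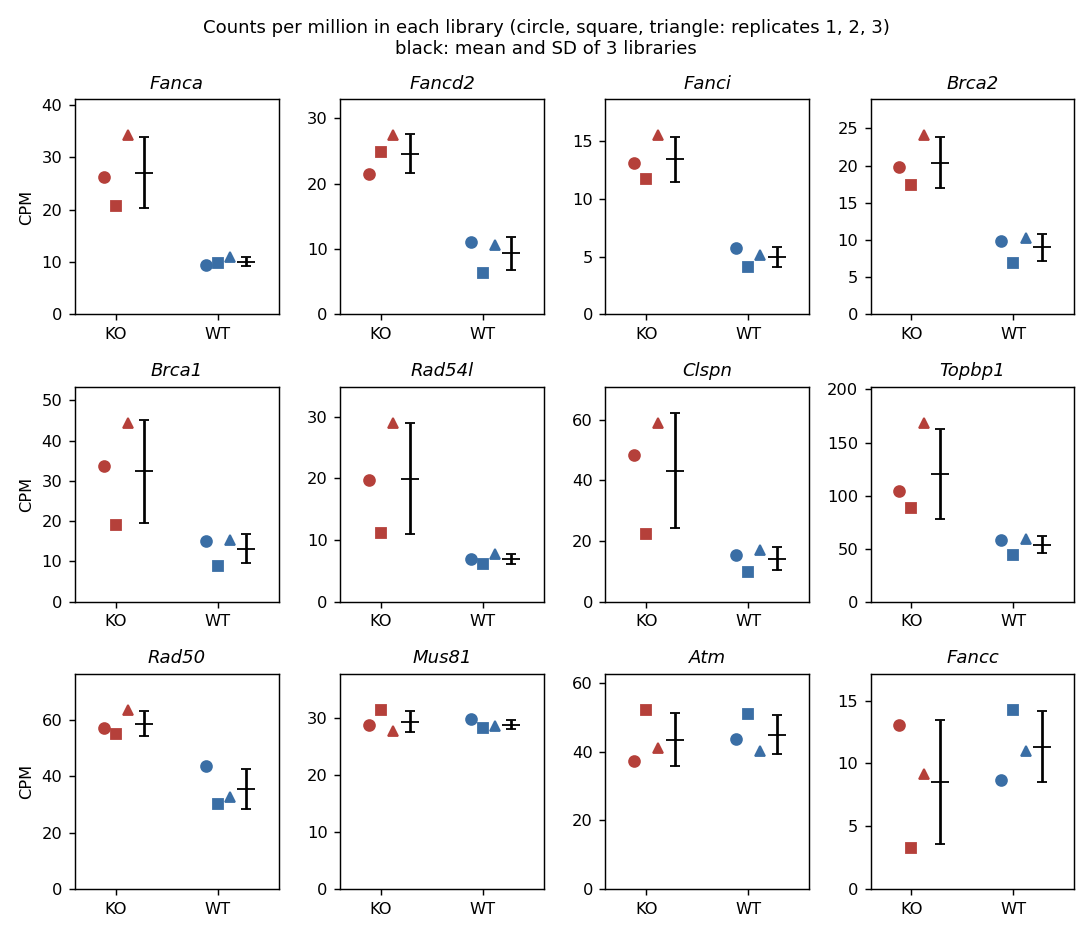
CPM (y axis from 0) of 12 of the genes in each KO (red) and WT (blue) library; circles, squares and triangles are replicates 1, 2 and 3, and the black marks are the mean and SD of 3 libraries. In the first 9 panels, Fanca to Rad50, every KO library lies above every WT library; in Mus81, Atm and Fancc the groups overlap.

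Helicases and nucleases take apart the joined DNA that recombination leaves. Brip1, a helicase that binds BRCA1, was at 12.2, 8.10 and 17.0 CPM in KO and at 5.68, 4.19 and 4.76 in WT. Eme1, the partner subunit of the MUS81 nuclease, was at 8.46, 6.71 and 11.97 CPM in KO and at 2.97, 2.04 and 4.50 in WT. Their log2 fold changes were 1.35 (SE 0.32) and 1.51 (SE 0.38), and DESeq2 called both. The catalytic subunit had level values: Mus81 was at 28.8, 31.4 and 27.8 CPM in KO and at 29.8, 28.2 and 28.5 in WT. Its log2 fold change of 0.03 (SE 0.14) had the smallest standard error of the 43 genes, and its edgeR adjusted p was 0.941. It was -0.023 without the library labelled KO replicate 2. Slx4, the scaffold that holds MUS81, had a log2 fold change of -0.05 (SE 0.16), and it was 0.11 when scaled by library totals alone and 0.020 without WT replicate 3.

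The BLM helicase works with RMI1 and RMI2 to dissolve joined strands. Blm was at 24.6, 19.1 and 24.9 CPM in KO and at 13.9, 13.4 and 16.4 in WT, a log2 fold change of 0.65 (SE 0.19). Rmi2 was sparse, at 1.15, 0.760 and 1.41 CPM in KO and at 0.560, 0.349 and 0.159 in WT. Its log2 fold change of 1.59 carried an SE of 0.53, among the widest of the 43. Rmi1 had a log2 fold change of 0.16 (SE 0.25) and overlapped between the groups. With all 6 libraries DESeq2 called none of these 3, with 2 of them at an unadjusted edgeR p under 0.05 and adjusted p values of 0.193, 0.212 and 0.767 in edgeR for Blm, Rmi2 and Rmi1. Without the library labelled KO replicate 2, DESeq2 called Blm, at a log2 fold change of 0.76.

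End resection trims breaks to single strands, begun by the MRE11-RAD50-NBN complex with CtIP, the product of Rbbp8, and extended by EXO1. Exo1 was at 22.4, 10.5 and 30.6 CPM in KO and at 7.58, 4.54 and 9.32 in WT, a log2 fold change of 1.56 (SE 0.43). Replicate 2 was the lowest of each group, and KO replicate 2 stood close to WT replicate 3. Rad50 was at 57.3, 55.0 and 63.7 CPM in KO and at 43.7, 30.0 and 32.8 in WT, a log2 fold change of 0.72 (SE 0.18). Mre11a was at 39.5, 37.5 and 55.7 CPM in KO and at 36.3, 28.3 and 27.2 in WT, where KO replicate 2 and WT replicate 1 nearly met. Nbn was at 23.6, 19.1 and 28.1 CPM in KO and at 20.5, 13.4 and 18.6 in WT. The 3 subunits of the one complex thus had log2 fold changes of 0.72, 0.53 and 0.43, below that of Exo1, and DESeq2 called Rad50 and Exo1 of the 5. With a library left out, DESeq2 called Rad50 in only 1 of 6 fits. Rad50 was not called by DESeq2 without the library labelled KO replicate 2, where the groups stayed apart. Rbbp8 was at 34.8, 38.8 and 52.1 CPM in KO and at 28.8, 14.6 and 45.8 in WT, the widest spread within WT of the group.

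The checkpoint genes encode fork proteins and kinases. Clspn encodes claspin, which links ATR to CHK1. It was at 48.2, 22.4 and 59.0 CPM in KO and at 15.5, 9.84 and 16.9 in WT, and its log2 fold change of 1.61 (SE 0.38) was the largest of the 43. Topbp1, the activator of ATR, was at 104, 87.9 and 169 CPM in KO and at 58.6, 44.4 and 58.8 in WT. Timeless, which travels with the fork, was at 25.2, 15.7 and 27.6 CPM in KO and at 10.03, 7.45 and 10.5 in WT. Its log2 fold change was 1.29 (SE 0.27), and that of its partner Tipin was 1.10 (SE 0.32). The groups did not overlap for any of these 4 fork genes, and DESeq2 called each.

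Of the kinases, the effectors and the sensors differed in their values. Chek2 was at 14.6, 14.4 and 21.97 CPM in KO and at 7.49, 5.12 and 9.05 in WT, a log2 fold change of 1.23 (SE 0.29). Chek1 had a log2 fold change of 1.11 (SE 0.35). DESeq2 called both effector kinases, Chek1 at an adjusted p of 0.0496. With a library left out, DESeq2 called Chek1 in 2 of 6 fits and Chek2 in 4. The sensor kinase Atm was at 37.2, 52.3 and 41.2 CPM in KO and at 43.8, 51.1 and 40.1 in WT, a log2 fold change of -0.05 (SE 0.18), and the groups overlapped throughout. Its sign depended on the libraries and the scaling: it was 0.12 when scaled by library totals alone, and leaving out KO replicate 1, KO replicate 3 or WT replicate 2 gave 0.058, 0.012 and 0.053. Atr and its partner Atrip had log2 fold changes of 0.19 (SE 0.19) and 0.11 (SE 0.35), with edgeR adjusted p of 0.631 and 0.887. An effector was not set against a sensor in a test of the difference.

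**Figure D3:**
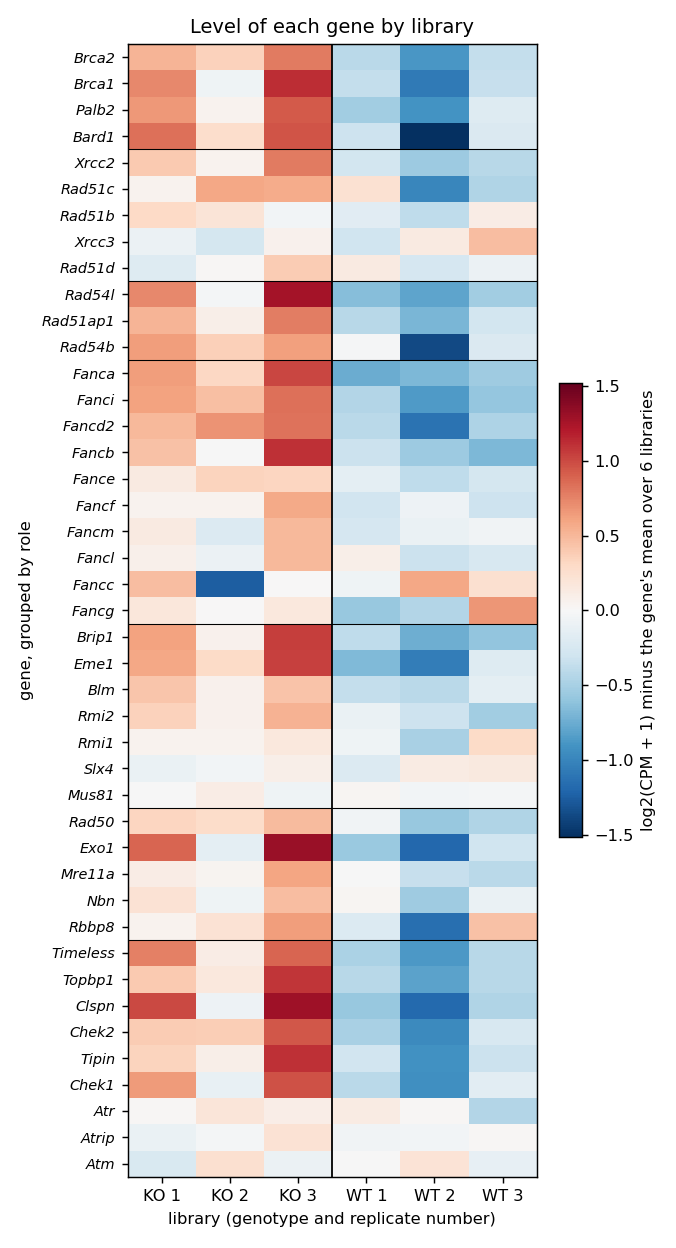
Level of each of the 43 genes (rows, grouped by role) in the 6 libraries (columns), as log2(CPM + 1) minus the gene's mean. KO replicate 3 is the highest KO library for 34 of the 43 rows, KO replicate 2 the lowest for 32, and WT replicate 2 the lowest WT library for 30.

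Replicates of a group kept an order over most of the genes. KO replicate 3 was the highest KO library for 34 of the 43 genes, beside 36.4% of all genes tested, and the library labelled KO replicate 2 was the lowest for 32, beside 36.3%. In WT, replicate 2 was the lowest for 30 of the 43, beside 35.5% of all genes. Summed over the 43, the level was 958, 819 and 1229.5 CPM in KO and 638, 534 and 660.3 CPM in WT, so the groups did not overlap. The means were 1002 ± 209 and 611 ± 67.3 CPM (SD, n = 3).

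Proliferation markers differed in the same direction. All 12 of them had higher values in KO with no overlap of the groups, beside 13.2% of all genes, and DESeq2 called 12, beside 4.17%. The median of their log2 fold changes was 1.44, and each had an unadjusted edgeR p under 0.05, beside 9.88% of all genes higher at that p. Their summed level ran from 1150.3 to 1827 CPM in KO and from 397 to 687 CPM in WT, and both sums were highest in KO replicate 3 and lowest in WT replicate 2. Differentiation markers, all 9 measured with negative log2 fold changes, summed to 8249 to 22656 CPM in KO and 19737 to 53216 in WT. In these bulk libraries a larger share of cells of one kind and more RNA per cell cannot be told apart, and the part of the proliferation markers in the values of the repair genes was not tested.

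**Figure D4:**
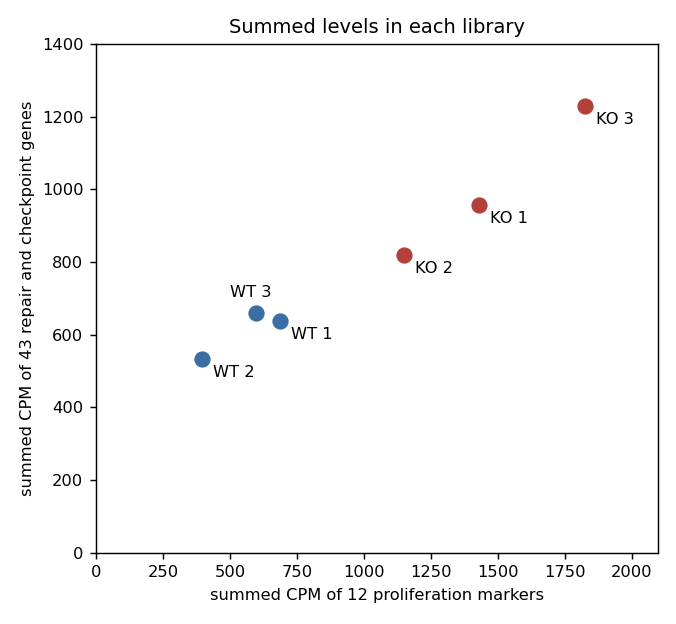
Summed CPM of the 43 repair and checkpoint genes (y axis) against the summed CPM of 12 proliferation markers (x axis), 1 point a library, KO red and WT blue. The KO libraries lie at 819 to 1229.5 CPM on the y axis and the WT libraries at 534 to 660.3, with no overlap on either axis.

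Further genes of the same pathways, from further lists, also had values on both sides. At an unadjusted edgeR p under 0.05, 13 of 32 other recombination and Fanconi genes tested were higher, beside 9.88% of all genes, and 0 lower, beside 7.83%. DESeq2 called 10 higher, beside 4.17% of all genes with an adjusted p, and edgeR 0, beside 0%. The median log2 fold change was 0.27. Gen1, a nuclease that cuts joined strands, Rtel1, a helicase, and Usp1, which removes ubiquitin from FANCD2, had the smallest p, with log2 fold changes of 1.33 (SE 0.29), 0.82 (SE 0.19) and 1.01 (SE 0.24). Of 15 other checkpoint genes 10 were higher and 1, Trp53bp1, was lower at that p, beside the same 9.88% and 7.83%. DESeq2 called 6 higher, beside the same 4.17%, and the median was 0.78. Wee1, the kinase that restrains mitotic entry, was at 26.5, 23.4 and 30.8 CPM in KO and at 11.2, 10.2 and 13.9 in WT. H2afx, the histone marked at breaks, and Wdhd1, a fork protein, had log2 fold changes of 1.54 (SE 0.27) and 1.88 (SE 0.38). DESeq2 called all 6 of these genes, and edgeR, with adjusted p of 0.138 to 0.151, called 0.

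**Figure D5:**
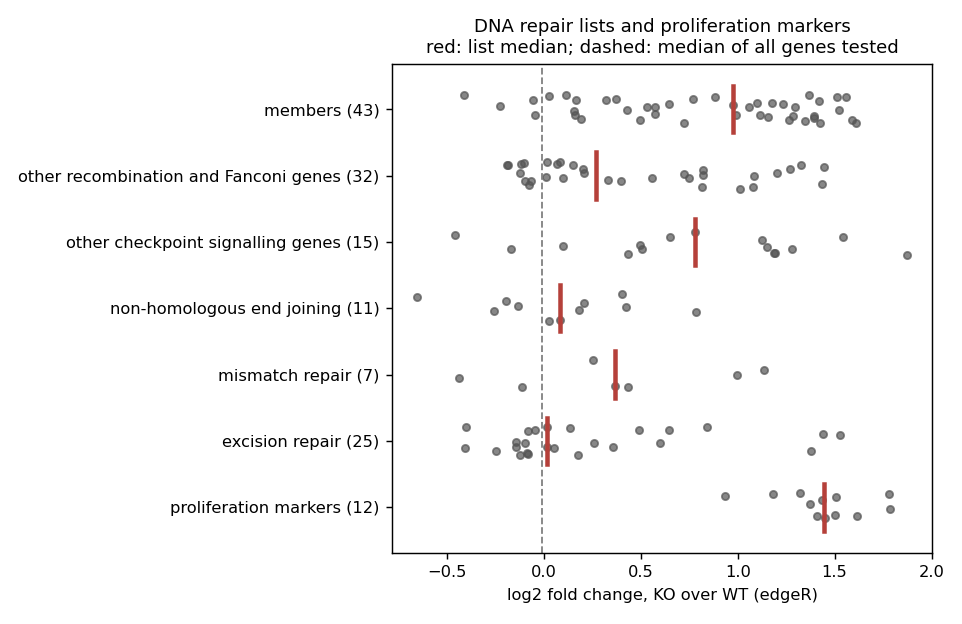
Log2 fold change of KO over WT (x axis, edgeR) of every tested gene in 6 lists beside the 43 genes (top row), 1 point a gene, with the list median in red and the median of all genes tested dashed. The medians are 0.98 for the 43 genes, 0.78 for other checkpoint genes, 0.08 for end joining, 0.02 for excision repair and 1.44 for proliferation markers.

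By RefSeq positions on GRCm38.p6, 16 of the 43 genes overlap the span of another gene in the count table, among them Fanca with Zfp276, Fanci with Polg, Fancd2 with Fancd2os, Rad54l with Lrrc41, Eme1 with Lrrc59 and Mrpl27, and Fancb with Mospd2. The libraries were stranded, but whether strand was used in counting is not given in the sources used here. If it was not, reads of such pairs cannot be told apart where their exons overlap. Fanca lies on chromosome 8 from 123266294 to 123318651, Fanci on chromosome 7 from 79392312 to 79450266 and Fancd2 on chromosome 6 from 113531640 to 113597020.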

How the data were processed

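Per the submitters' processing notes, the authors used TopHat2 2.0.8 with Bowtie2, featureCounts, DESeq2, Trimmomatic and FastQC on build GRCm38, and their settings and order are not given in the sources used. Raw, unnormalized counts per gene symbol and library were deposited in 1 table. It also holds a signal, the authors' counts divided by a size factor, and the authors' log2 fold changes, test scores and p-values, per the file headers; of these only the adjusted p-values and signs were used.

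Genes were kept with filterByExpr, which dropped 6943 of 21778. TMM scaling was followed by edgeR 4.0.16 in R 4.3.3, using its quasi-likelihood F test without covariates and Benjamini-Hochberg adjustment over 14835 genes. Standard errors are the log2 fold change over the square root of F. As no label ties libraries to single animals, p-values measure only the spread between 3 libraries a group. Alternatives were DESeq2 1.42.0, limma-voom (limma 3.58.1), other scalings, no filter, a replicate block, a sex covariate, each library left out, a threshold of 0.10 and the authors' calls; edgeR's bias-adjusted dispersion was added after seeing the data. The scripts were tested on simulated data. With no gene changed, DESeq2 made 24 false calls at an adjusted p under 0.05, and edgeR and limma-voom made 0. With 200 genes changed, DESeq2 made 47 false calls, edgeR 7 and limma-voom 4. Of the 2-fold changes, DESeq2 recovered 50%, edgeR 21% and limma-voom 18%. The 43 genes and all lists were chosen with earlier results of these data known. Each library is given for up to 4 genes of a role with the smallest p and the 1 with the largest p; Fancc and the genes given by fold change alone were named after their values were seen. No library pair agreed within counting noise. Some marker genes, such as Ptprc and Lum, were not analysed here, and some results are not reported here.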

Additional observations from a re-analysis of the deposited data

How the results depend on the processing

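At these depths sparse genes such as Rad51b, Rmi2 and Atrip rest on few counts, and each edgeR and limma-voom setting run called 0 of all genes; a threshold of 0.10, run with the design reported above alone, left 0 of the 43 called. The smallest edgeR adjusted p among the 43 was 0.0607 with the sex covariate and 0.0991 with library totals, so that threshold would be passed there. With library totals alone as scaling, the median over all genes became 0.14 on the log2 scale, and the genes past an unadjusted p of 0.05 became 2019 higher and 700 lower in place of 1465 and 1161; the median of the 43 genes was then 1.11. DESeq2 called 608 genes higher and 322 lower, and 21 of the 43 were higher both there and in the deposited table of the authors, who also used DESeq2. The cause was not tested.

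Without each library in turn, the genes of the 43 past an unadjusted edgeR p of 0.05 were 22 to 27 higher and 0 lower; over all genes it had 904 to 1627 higher, and 434 to 1506 were lower. DESeq2 without each library called 3 to 21 of the 43 and 175 to 810 genes higher and 39 to 712 lower, while at an unadjusted p under 0.05 it had 934 to 1748 higher, and 656 to 1735 were lower. The median of the 43 ran from 0.70 to 1.15, and for 0 to 2 of them all KO values lay below WT, the 2 being Xrcc3 and Slx4 without WT replicate 1. Hdac11 ran from -1.18 (DESeq2, without the library labelled KO replicate 2, adjusted p 3.67e-05, where the range over all settings reached 0.823) to -0.37.

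Signs turned for genes near 0: Slx4 was 0.11 and Atm 0.12 with library totals, and with a library left out the log2 fold changes ran from -0.20 to 0.058 for Atm, -0.16 to 0.020 for Slx4, -0.029 to 0.082 for Mus81, -0.029 to 0.30 for Rad51d, -0.086 to 0.24 for Atrip, -0.12 to 0.86 for Fancg and -0.039 to 0.39 for Rmi1. With the replicate number as a block, 24 of the 43 were higher at an unadjusted p under 0.05 and edgeR called 0. A sex covariate gave 27 higher at that p. Deviations from the group mean correlated at -0.248, -0.0694 and 0.0476 between same-numbered KO and WT libraries. Between KO and WT libraries of unlike number they correlated at -0.249 to 0.357. Deviations sum to 0 within a group, so these values cannot tell whether the numbers pair the samples.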

Other observations

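Repair pathways outside recombination showed values on both sides of 0. At an unadjusted edgeR p under 0.05, 1 of 11 end joining genes tested was higher, beside 9.88% of all genes. In the other direction 0 were lower, beside 7.83%, and the median log2 fold change was 0.08. The 1 gene past that p was Rif1, which protects ends from resection, at 0.78 (SE 0.17). Prkdc and Xrcc5, which hold broken ends, were at -0.13 and 0.03. Of the mismatch repair genes, Msh6, which takes part in mismatch recognition, was at 1.13 (SE 0.28), and the median of the list was 0.37. Of 25 excision repair genes, 5 were higher and 0 lower at that p, beside the same 9.88% and 7.83% of all genes, with a median of 0.02. These included Neil3, a DNA glycosylase, at 13.9, 14.6 and 21.4 CPM in KO and 8.53, 5.47 and 4.39 in WT, and Lig1, the ligase of replication, at 70.7, 42.5 and 90.7 CPM in KO and 31.3, 15.8 and 23.5 in WT. In edgeR 0 genes of these lists passed over all genes, and DESeq2 called 1, 1 and 3 higher, beside 4.17% of all genes with an adjusted p. Prkdc and Xrcc5 were named after their values were seen.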
